A study of Mus musculus with 16 samples.

Results

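The enzymes that turn squalene epoxide into cholesterol were followed as 9 genes, *Lss*, *Cyp51*, *Tm7sf2*, *Msmo1*, *Nsdhl*, *Hsd17b7*, *Ebp*, *Sc5d* and *Dhcr7*, which were taken by gene symbol from the 55450 genes quantified. Their RNA was measured in bulk in primary hepatocytes of male wild-type C57BL/6J mice aged 8 to 12 weeks, in 16 libraries that make 4 groups of 4. The untreated group received medium alone, the itaconate group 10 mM sodium itaconate, and the lipid group a 10-fold dilution of a chemically defined lipid mixture, while the lipid + itaconate group received both. All groups were kept overnight in DMEM with 5% FBS and insulin-transferrin-selenium, and the undiluted mixture holds cholesterol at 0.22 mg/mL, arachidonic acid at 2 µg/mL and 5 other fatty acids (oleic, palmitic, stearic, linoleic and myristic) at 10 µg/mL apiece. Every group therefore had serum, and both lipid groups also had added cholesterol and fatty acids. Libraries within a group carry the letters A to D, 1 library of each letter per treatment. The labels do not say whether the letters are separate mice or cultures, so p values measure only the spread between these libraries.

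Cholesterol is made in the endoplasmic reticulum from acetyl-CoA by way of mevalonate and squalene. After squalene has been oxidized, lanosterol synthase closes the sterol rings, and a series of demethylations, reductions and a shift of a double bond then turns lanosterol into cholesterol. The liver is a main site of this synthesis, and in hepatocytes, as in other cells, the transcription factor SREBP2 raises the pathway's genes when membrane sterol is low, whereas sterol in the membrane keeps SREBP2 from being processed.

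All 9 genes passed the filter of a mean of 1 CPM (counts relative to the size of the library, here scaled by edgeR's TMM factors), as did 11675 of the 55450 genes. The 16 libraries held 22346049 to 35512004 expected counts each, and the lowest count of any of the 9 genes in a library was 268 (*Hsd17b7*). Mitochondrial genes took 3.27% to 6.01% of the counts, the highest share being that of lipid + itaconate replicate C. The libraries had the markers of hepatocytes, with *Alb* at a mean of 33458 CPM and all 7 hepatocyte markers over the filter. Of the markers of other liver cells, *Cd68* (218 CPM), *Sox9* (111 CPM) and *Spp1* (529 CPM) were the most abundant, whereas the defining cholangiocyte markers *Krt7*, *Krt19* and *Epcam* and the stellate markers *Des*, *Lrat* and *Pdgfrb* averaged under 1 CPM. The stellate marker *Reln* averaged 20.2 CPM, the 1 of 7 on its list over the filter. All 7 macrophage markers passed it, those other than *Cd68* at 1.78 (*Adgre1*) to 10.9 CPM (*Cd5l*). So did 5 of 6 endothelial markers, the highest being *Cdh5* at 5.78 CPM.

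Per length of their merged exons, the enzymes differed widely in untreated hepatocytes. *Sc5d* was the highest with 63.8 ± 4.62 CPM per kb (SD, n = 4), followed by *Cyp51* with 48.1 ± 4.12, *Msmo1* with 32.9 ± 3.14, *Nsdhl* with 22.6 ± 3.32, *Ebp* with 22.2 ± 1.83, *Tm7sf2* with 14.3 ± 1.74, *Dhcr7* with 12.4 ± 2.33, *Lss* with 5.33 ± 0.631 and *Hsd17b7* with 4.46 ± 0.443 CPM per kb. Neighbours in this order had ranges that did not overlap, except *Nsdhl* and *Ebp*, *Tm7sf2* and *Dhcr7*, and *Lss* and *Hsd17b7*. The order depends on which bases count as the gene's length. With the longest annotated transcript in place of the merged exons, *Msmo1* came first (68.0 CPM per kb), and *Dhcr7* (25.6 CPM per kb) passed *Tm7sf2* (20.5 CPM per kb).

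The letters of the genes' promoters were read from RefSeq windows (GRCm38.p6) of 250 bases before and 50 after each annotated start, of which the 9 genes have 11 and all genes 32817. Searched on both strands, the sterol element TCACNCCAC was in 0 of the 11 windows and in 1.24% of all windows. The CCAAT box, which the factor NF-Y binds, was in 9 of the 11 windows and in at least 1 window of each gene, against 37.4% of all windows, and the GC box GGGCGG, which Sp1 binds, in 10 of the 11 and in each gene, against 35.6%. *Tm7sf2*, *Ebp* and *Sc5d*, whose differences with lipid were small, hold both boxes, as *Lss* does. *Dhcr7* has 3 annotated starts, and the window of its first holds a GC box and no CCAAT box, while the third holds both. Motifs were counted whether or not they overlap one another. A match is a description of letters and not a site, and the lack of one says only that these letters are not in the window.

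Promoter sequences are given for the enzymes with the largest fall (*Lss*), the smallest standard error among the large falls (*Nsdhl*), the smallest called change (*Sc5d*) and the rise (*Dhcr7*, first start). Each is the longest unbroken stretch of the 250 bases before the start that no GENCODE exon covers, read 5′ to 3′ on the strand of the gene, with CCAAT boxes (CCAAT or its reverse complement ATTGG) and GC boxes (GGGCGG or CCGCCC) in capitals. They lie at chr10:76531355-76531587 on the plus strand (*Lss*), chrX:72918412-72918520 on the plus strand (*Nsdhl*), chr9:42264301-42264550 on the minus strand (*Sc5d*) and chr7:143822917-143823144 on the plus strand (*Dhcr7*).
Lss: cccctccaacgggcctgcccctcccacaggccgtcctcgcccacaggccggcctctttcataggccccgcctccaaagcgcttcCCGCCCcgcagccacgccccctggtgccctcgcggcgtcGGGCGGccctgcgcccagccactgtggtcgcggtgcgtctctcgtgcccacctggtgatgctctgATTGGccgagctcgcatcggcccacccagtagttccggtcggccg
Nsdhl: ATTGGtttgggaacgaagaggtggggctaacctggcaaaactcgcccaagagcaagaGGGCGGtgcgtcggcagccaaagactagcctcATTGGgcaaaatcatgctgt
Sc5d: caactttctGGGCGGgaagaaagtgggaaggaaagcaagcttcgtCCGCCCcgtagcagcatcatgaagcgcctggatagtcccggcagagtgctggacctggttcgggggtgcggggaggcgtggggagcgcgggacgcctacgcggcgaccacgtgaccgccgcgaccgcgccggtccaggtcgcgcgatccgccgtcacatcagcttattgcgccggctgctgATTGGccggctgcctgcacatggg
Dhcr7: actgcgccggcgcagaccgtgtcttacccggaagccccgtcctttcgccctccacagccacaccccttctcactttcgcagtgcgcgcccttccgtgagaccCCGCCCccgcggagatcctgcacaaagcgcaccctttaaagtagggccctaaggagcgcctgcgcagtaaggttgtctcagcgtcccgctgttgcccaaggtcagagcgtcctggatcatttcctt

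The largest differences came with lipid. *Lss* fell by 54.1%, *Cyp51* fell by 45.1%, *Nsdhl* fell by 44.4%, *Msmo1* fell by 31.2% and *Hsd17b7* fell by 27.7%. *Dhcr7* instead rose, by 38.3%. By edgeR's quasi-likelihood test, 7 of the 9 genes were called lower and 1 higher (adjusted p under 0.05), set against 23.7% of all genes tested that were lower and 23.8% that were higher. On the log2 scale the 9 genes had a median change of −0.47 (range −1.12 to 0.47) and all genes tested one of 0.0047. Changes of single genes are given as log2 fold changes with their standard error (SE). In bulk RNA, fewer cells of a type and less RNA per cell cannot be told apart. The summed level of the 5 cholangiocyte markers, which is nearly all *Spp1* and *Sox9*, also moved with lipid. It was 595 to 1163 CPM in untreated and 336 to 610 CPM in lipid-treated libraries, with 2 of 5 (*Spp1* and *Sox9*) called lower. The other 3 were too low to be tested. The 7 macrophage markers, mostly *Cd68*, summed to 179 to 285 CPM in untreated and 231 to 326 CPM in lipid-treated libraries, with 1 of 7 called higher and 3 called lower, and of the 7 hepatocyte markers 2 were called lower. The part of these cells in the result was not tested.

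**Figure D1:**
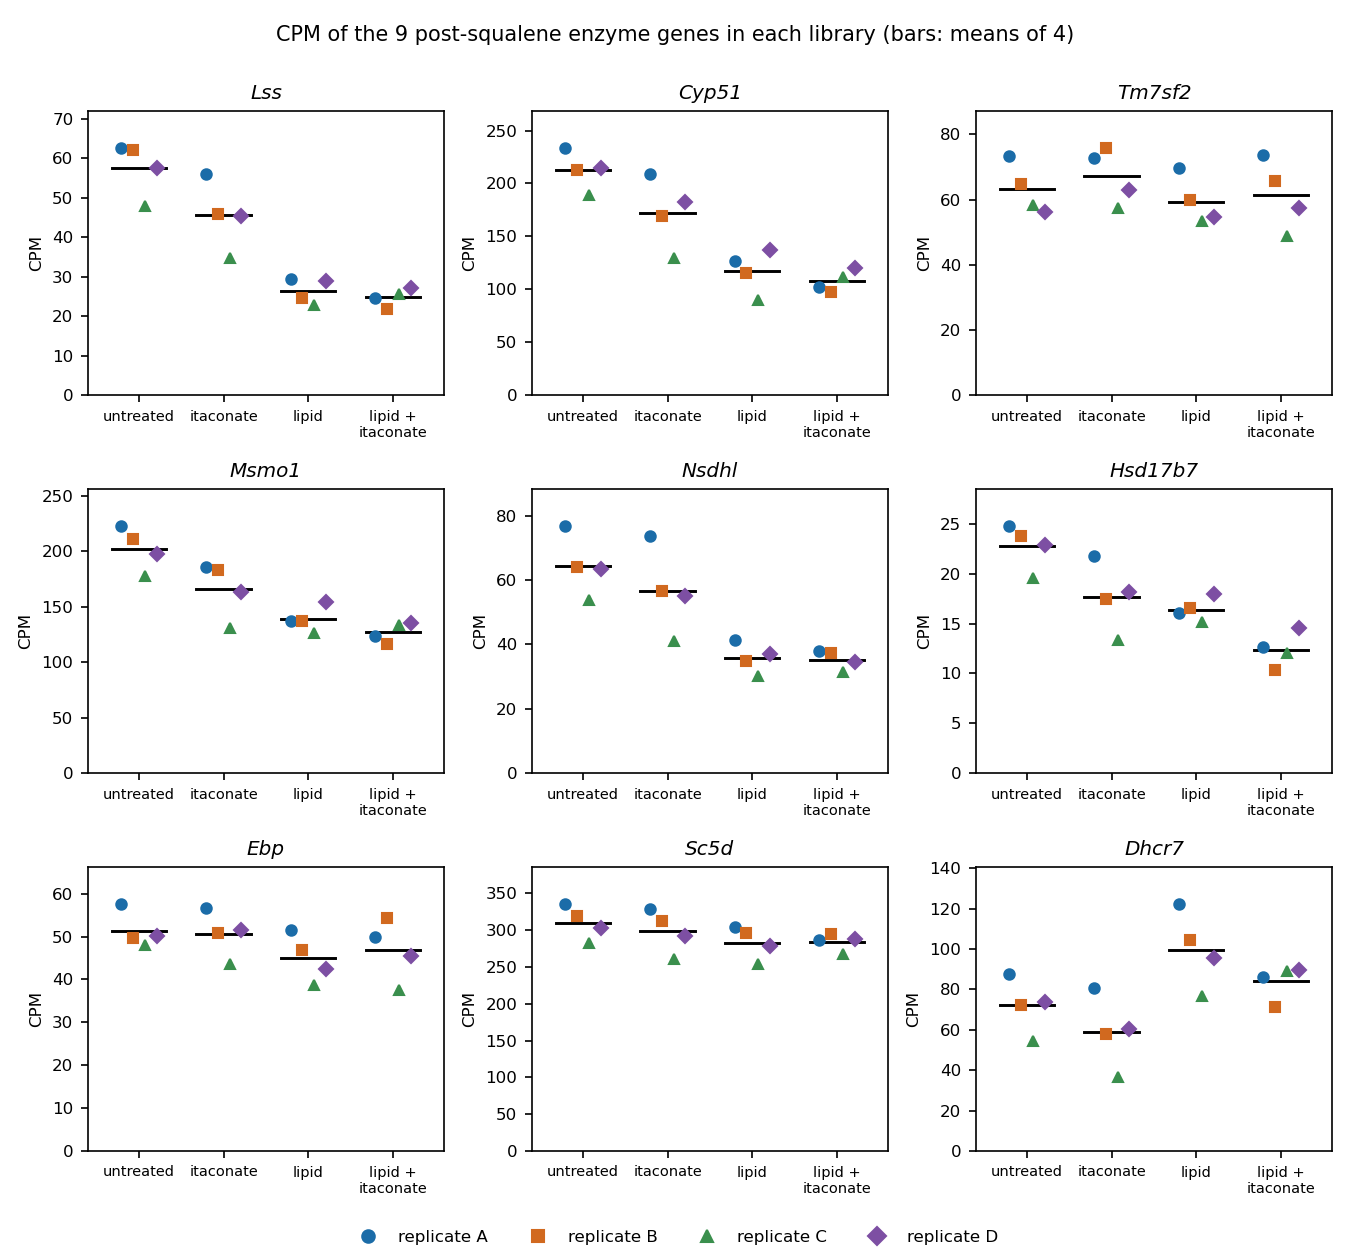
CPM (TMM-scaled, linear axes from 0) of the 9 genes in each of the 16 libraries, with 1 panel per gene, 1 column per treatment, 1 symbol and colour per replicate letter, and a bar at the mean of each group of 4. *Lss*, *Cyp51*, *Msmo1*, *Nsdhl* and *Hsd17b7* lie lower in the lipid columns than in the untreated column without overlap, *Tm7sf2*, *Ebp* and *Sc5d* differ little between columns, and *Dhcr7* lies higher with lipid.

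*Lss* (ENSMUSG00000033105.12; chromosome 10, plus strand, 76531588 to 76557138, GRCm38; 21 merged exons) encodes lanosterol synthase, the enzyme that cyclizes squalene epoxide. Its level in untreated replicates A, B, C and D was 62.5, 62.1, 47.8 and 57.6 CPM, and in lipid-treated replicates 29.5, 24.6, 22.7 and 28.9 CPM. Every lipid-treated library was lower than every untreated one. In log2 terms this was −1.12 ± 0.092 (SE, adjusted p = 1.81e-07), with a fall in all 4 letters, and it was the largest fall of the 9 genes. In itaconate-treated replicates A to D *Lss* was at 56.1, 45.9, 34.7 and 45.2 CPM, and with lipid + itaconate at 24.7, 21.7, 25.7 and 27.2 CPM, again without overlap. In the presence of itaconate the change with lipid was −0.86 ± 0.092 (SE), at an adjusted p of 3.50e-06. The exons of *Lss* share 381 bases with the antisense gene *4930483K19Rik* on the other strand. The libraries were made with a stranded kit, but whether the counting used strand is not given in the sources used here.

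*Cyp51* and *Tm7sf2* act next, on carbon 14 of the sterol. *Cyp51* (ENSMUSG00000001467.5; chromosome 5, minus strand, 4081145 to 4104746; 10 merged exons) encodes lanosterol 14-alpha-demethylase, the cytochrome P450 that azole antifungals inhibit in yeast. It was at 233, 213, 189 and 215 CPM in untreated replicates A to D and at 127, 116, 90.4 and 137 CPM in the lipid-treated ones. The groups did not overlap, and lipid-treated replicate C was the lowest of the 8 libraries. The fitted log2 fold change was −0.87 ± 0.093 (SE, adjusted p = 2.88e-06). With itaconate the 4 libraries ran from 129 to 209 CPM and with lipid + itaconate from 97.8 to 120.5 CPM, a log2 fold change of −0.65 ± 0.093 (SE, adjusted p = 4.96e-05). The exons of *Cyp51* share 166 bases with *Akap9* on the opposite strand.

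*Tm7sf2* (ENSMUSG00000024799.16; chromosome 19, minus strand, 6062821 to 6068373; 6 merged exons) encodes a sterol C14-reductase, a step that the lamin B receptor *Lbr* can also carry out. In contrast to *Cyp51*, it was at 73.3, 64.7, 58.4 and 56.2 CPM in untreated and at 69.6, 59.9, 53.3 and 54.7 CPM in lipid-treated replicates A to D. The groups overlapped, although the lipid-treated library was the lower one in all 4 letters. As a log2 fold change this was −0.09 ± 0.055 (SE, 95% interval −0.21 to 0.03, adjusted p = 0.195). Between lipid + itaconate and itaconate it was −0.14 ± 0.055 (SE, adjusted p = 0.0482), with a fall in 3 of 4 letters. That call ended in 9 of the 14 alternatives (adjusted p 0.0177 to 0.443), among them the omission of itaconate replicate B, C or D (0.159, 0.0694 and 0.117) or of lipid + itaconate replicate B, C or D (0.0608, 0.179 and 0.0702). *Tm7sf2* shares 532 exon bases with *Vps51* on the same strand, so that reads there could be counted for either gene.

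*Msmo1*, *Nsdhl* and *Hsd17b7* encode the enzymes that remove the methyl groups at carbon 4. *Msmo1* (ENSMUSG00000031604.10; chromosome 8, minus strand, 64718139 to 64733792; 8 merged exons) encodes the C4-methylsterol oxidase that starts the step. It was at 222, 211, 177 and 197 CPM in untreated replicates A to D and at 137, 137, 126 and 154 CPM with lipid. The highest lipid-treated library was lower than the lowest untreated one. The change was −0.54 ± 0.083 on the log2 scale (SE, adjusted p = 7.87e-05). With itaconate its libraries were at 185, 183, 130.4 and 163 CPM and with lipid + itaconate at 124, 117, 133 and 135 CPM. These 2 groups overlapped because itaconate replicate C was low, and in letter C alone *Msmo1* was slightly higher with lipid + itaconate. Over the 4 letters the log2 fold change was −0.37 ± 0.083 (SE, adjusted p = 0.00201).

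*Nsdhl* (ENSMUSG00000031349.4; chromosome X, plus strand, 72918557 to 72958514; 8 merged exons) encodes the sterol 4-alpha-carboxylate 3-dehydrogenase that takes off the oxidized carbon. Its untreated libraries A to D were at 76.8, 64.1, 53.8 and 63.5 CPM and the lipid-treated ones at 41.4, 34.9, 30.0 and 37.1 CPM. The groups did not overlap. The fitted log2 fold change was −0.85 ± 0.066 (SE, adjusted p = 1.21e-07), and within letters it lay between −0.89 and −0.77, a narrow range. With itaconate *Nsdhl* was at 73.8, 56.7, 41.0 and 55.2 CPM and with lipid + itaconate at 37.9, 37.2, 31.5 and 34.6 CPM, also without overlap, for a log2 fold change of −0.66 ± 0.066 (SE, adjusted p = 1.85e-06).

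*Hsd17b7* (ENSMUSG00000026675.12; chromosome 1, minus strand, 169949535 to 169969241; 10 merged exons) encodes the 3-ketosteroid reductase that ends C4 demethylation. It was the lowest of the 9 genes per length, at 24.8, 23.8, 19.6 and 22.9 CPM in untreated and 16.0, 16.6, 15.1 and 17.9 CPM in lipid-treated replicates A to D. The groups did not overlap, with a log2 fold change of −0.47 ± 0.099 (SE, adjusted p = 0.00121). With itaconate it was at 21.8, 17.4, 13.3 and 18.2 CPM and with lipid + itaconate at 12.6, 10.3, 12.0 and 14.5 CPM. Itaconate replicate C lay within the range of the lipid + itaconate libraries. As a log2 fold change this was −0.50 ± 0.10 (SE, adjusted p = 0.000888), with a fall in all 4 letters.

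The last steps move a double bond and reduce the ring. *Ebp* (ENSMUSG00000031168.14; chromosome X, minus strand, 8185329 to 8193512; 4 merged exons) encodes the sterol isomerase also known as emopamil binding protein. It was at 57.6, 49.7, 48.1 and 50.1 CPM in untreated and at 51.6, 46.9, 38.8 and 42.5 CPM in lipid-treated replicates A to D. The groups overlapped, with the lipid-treated library lower in all 4 letters. The change was −0.20 ± 0.061 on the log2 scale (SE, adjusted p = 0.0141). The call was lost without untreated replicate C (adjusted p = 0.0698) or lipid replicate D (0.0509), and over the 14 alternatives the adjusted p ranged from 0.00553 to 0.186. Between lipid + itaconate and itaconate *Ebp* had a log2 fold change of −0.12 ± 0.060 (SE, adjusted p = 0.120). Without lipid + itaconate replicate B, the highest of its group for *Ebp* at 54.4 CPM, it was −0.19 (adjusted p = 0.00710), and this was the 1 alternative of 14 that called it (0.00710 to 0.449).

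*Sc5d* (ENSMUSG00000032018.14; chromosome 9, minus strand, 42251595 to 42264256; 7 merged exons) encodes lathosterol oxidase, a sterol C5-desaturase. It was the most abundant of the enzymes per length of merged exons and changed least among those with a call, from 335, 319, 283 and 303 CPM in untreated to 304, 296, 254 and 278 CPM in lipid-treated replicates A to D. The groups overlapped, and the 4 letters each gave a small fall, between 0.11 and 0.16 on the log2 scale. In log2 terms this was −0.13 ± 0.040 (SE, adjusted p = 0.0129). Without untreated replicate A the adjusted p was 0.0525, and over the 14 alternatives it ranged from 0.00273 to 0.183. Between lipid + itaconate and itaconate the log2 fold change was −0.07 (95% interval −0.15 to 0.02, adjusted p = 0.193).

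*Dhcr7* (ENSMUSG00000058454.15; chromosome 7, plus strand, 143823145 to 143848410; 12 merged exons) encodes 7-dehydrocholesterol reductase, which makes cholesterol from the precursor that skin also uses for vitamin D. It went the other way from the enzymes before it. Its level in untreated replicates A to D was 87.6, 72.3, 54.6 and 74.0 CPM and in lipid-treated ones 122, 104, 76.6 and 95.5 CPM. The lipid-treated library was higher in each letter, by 0.37 to 0.53 on the log2 scale, but the groups overlapped because replicate C was the lowest in both. The fitted log2 fold change was 0.47 ± 0.12 (SE, adjusted p = 0.00585). Without the replicate letter in the model the adjusted p was 0.0624, the highest over the 14 alternatives (lowest 1.03e-15), and no single library ended the call. Between itaconate, at 80.6, 58.0, 36.7 and 60.6 CPM, and lipid + itaconate, at 86.0, 71.1, 89.0 and 89.6 CPM, the log2 fold change was 0.56 ± 0.13 (SE, adjusted p = 0.00201). It was higher in all 4 letters, from 0.09 in letter A to 1.28 in letter C, where itaconate replicate C was the lowest of the 16 libraries for this gene.

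In the presence of itaconate, lipid thus gave 6 lower and 1 higher of the 9 genes, against 23.5% of all genes tested lower and 23.5% higher, with a median of −0.37 over the 9 genes and 0.0041 over all genes. The 2 lipid comparisons use different libraries. The libraries of the groups did not overlap for 5 of the 9 genes in lipid against untreated (*Lss*, *Cyp51*, *Msmo1*, *Nsdhl* and *Hsd17b7*) and for 3 in lipid + itaconate against itaconate (*Lss*, *Cyp51* and *Nsdhl*), shares to be read against 32.5% and 31.4% of all genes. With itaconate and with lipid + itaconate, respectively, *Tm7sf2* lay at 57.3 to 75.8 and 48.7 to 73.8 CPM, *Ebp* at 43.5 to 56.5 and 37.5 to 54.4 CPM, and *Sc5d* at 260.3 to 328 and 267 to 295 CPM, so that these 3 genes overlapped widely. The cholangiocyte markers, again nearly all *Spp1* and *Sox9*, summed to 575 to 1050.1 CPM with itaconate and 356 to 652 CPM with lipid + itaconate. These 2 genes of the 5 were called lower. Of the macrophage markers 1 of 7 was called higher and 6 lower, and of the hepatocyte markers 1 of 7 was called higher and 3 lower. The part of these cells was not tested here either.

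**Figure D2:**
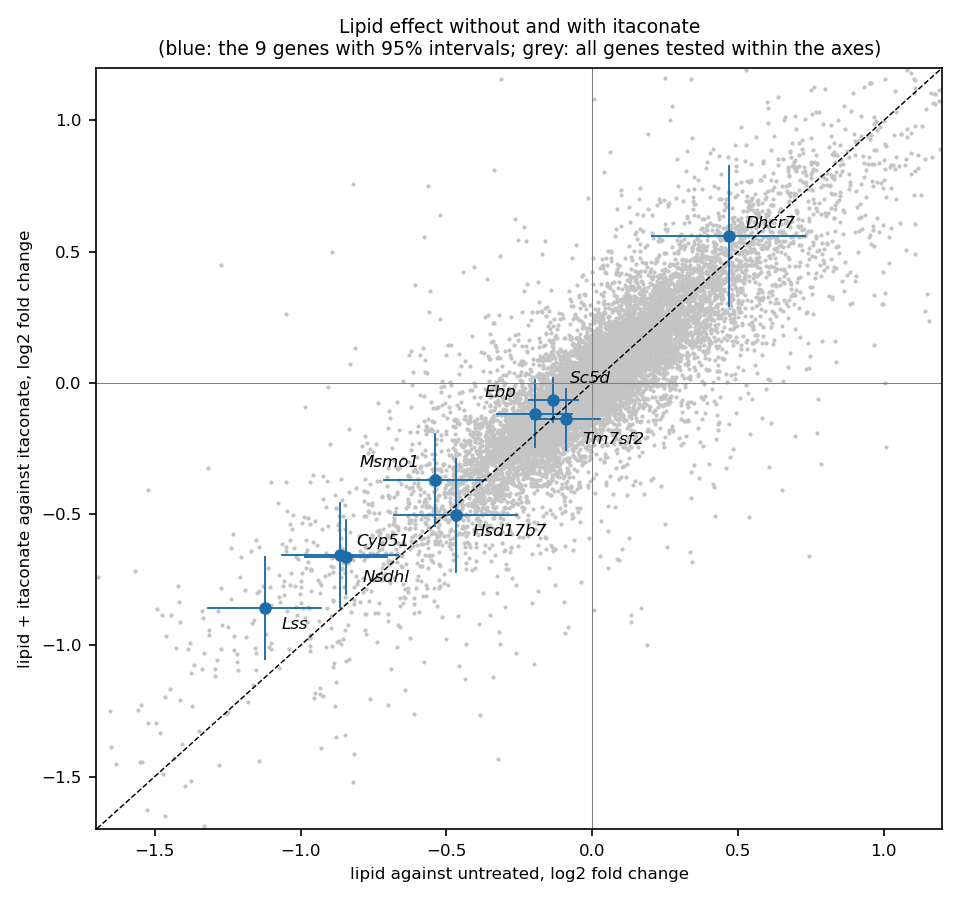
Log2 fold change of lipid against untreated (horizontal) and of lipid + itaconate against itaconate (vertical). Blue points are the 9 genes with their 95% intervals, grey points are the other genes tested that fall within the axes, and the dashed line marks equal change. *Lss* is the lowest of the 9 on both axes (−1.12 and −0.86), *Dhcr7* lies in the opposite quadrant (0.47 and 0.56), and *Tm7sf2*, *Ebp* and *Sc5d* lie near 0.

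Whether itaconate changed the response to lipid was asked with the interaction of the 2 agents. None of the 9 genes had an adjusted p under 0.05 in edgeR or in DESeq2. Of all 11675 genes edgeR called 1 (0.00857%) and DESeq2 called 36. At an unadjusted edgeR p under 0.05 there were 0 of the 9 as well. The smallest p of the 9 was that of *Lss* (0.0571), at rank 1119 of the 11675 genes. The largest interaction was that of *Lss*, 0.27 on the log2 scale (95% interval −0.01 to 0.54, adjusted p = 0.594), and the interval of *Cyp51* ran from −0.07 to 0.49, that of *Nsdhl* from −0.02 to 0.38 and that of *Dhcr7* from −0.28 to 0.47. All 9 intervals included 0, which does not show that the responses were alike.

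Itaconate alone gave smaller values in the same direction for most of the enzymes. Against untreated hepatocytes 8 of the 9 genes had a log2 fold change under 0, with a median of −0.29 (range −0.37 to 0.09) beside −0.0019 for all genes tested. This comparison has its untreated libraries in common with lipid against untreated. *Lss* and *Hsd17b7* were called, both lower, against 2.95% of all genes lower and 1.96% higher, and an unadjusted p under 0.05 was found for 6 of the 9. The largest of those 6 edgeR p values was that of *Dhcr7* (0.0264), at rank 1818 of the 11675 genes tested. No gene had groups that did not overlap, which was so for 7.53% of all genes.

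*Lss* was at 57.5 ± 6.81 CPM in untreated and 45.5 ± 8.72 CPM in itaconate-treated hepatocytes (SD, n = 4), and *Hsd17b7* at 22.8 ± 2.26 and 17.7 ± 3.46 CPM. Both were lower in all 4 letters, *Lss* by 0.16 to 0.46 and *Hsd17b7* by 0.19 to 0.55 on the log2 scale. Their log2 fold changes were −0.35 ± 0.088 (SE, adjusted p = 0.0338) and −0.37 ± 0.098 (SE, adjusted p = 0.0394). Both calls depended on single libraries. With itaconate replicate A left out they were kept, and with any other of the 8 libraries left out they were lost, so that the adjusted p ranged over 14 alternatives from 1.79e-05 to 0.255 for *Lss* and from 0.00120 to 0.230 for *Hsd17b7*. The log2 fold change stayed under 0 in each of these, between −0.42 and −0.28 for *Lss* and between −0.47 and −0.29 for *Hsd17b7*.

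*Msmo1*, *Cyp51* and *Nsdhl* had log2 fold changes of −0.29, −0.31 and −0.20 with itaconate (adjusted p = 0.0527, 0.0629 and 0.0872), each lower in all 4 letters. *Cyp51* and *Nsdhl* were called without itaconate replicate A (0.0400 and 0.0282) and *Msmo1* without itaconate replicate B (0.0493). Over the 14 alternatives the adjusted p ranged from 1.18e-05 to 0.224 for *Msmo1*, from 1.48e-06 to 0.337 for *Cyp51* and from 0.0125 to 0.614 for *Nsdhl*. *Dhcr7* had −0.31 ± 0.13 (SE, the widest of the 9, adjusted p = 0.170). In *Sc5d* (−0.06, 95% interval −0.14 to 0.03), *Ebp* (−0.02, −0.15 to 0.10) and *Tm7sf2* (0.09, −0.03 to 0.21) the intervals included 0. The itaconate and lipid values had opposite signs in *Dhcr7* (−0.31 and 0.47) and in *Tm7sf2* (0.09 and −0.09), and of these only the rise of *Dhcr7* with lipid passed the test.

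**Figure D3:**
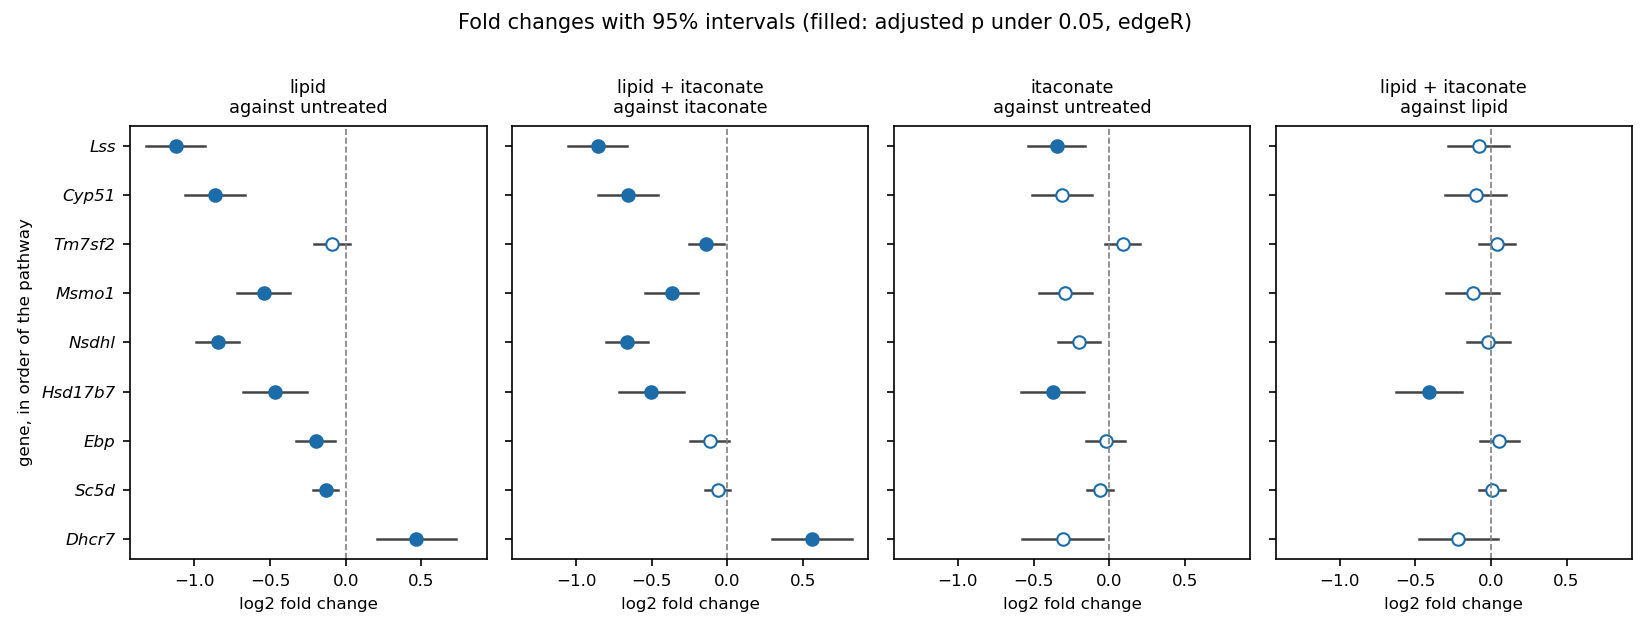
Log2 fold changes of the 9 genes in 4 comparisons, 1 panel each, with genes in the order of the pathway from top to bottom. Points are edgeR estimates, bars 95% intervals, and filled points have an adjusted p under 0.05. In both lipid panels *Lss*, *Cyp51*, *Msmo1*, *Nsdhl* and *Hsd17b7* lie left of 0 and *Dhcr7* right of it, and in the itaconate panels the values are smaller, with *Lss* and *Hsd17b7* filled without lipid and *Hsd17b7* alone with it.

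When lipid was present, *Hsd17b7* was lower again with itaconate. This comparison has its lipid-treated libraries in common with lipid against untreated. The lipid-treated libraries A to D were at 16.0, 16.6, 15.1 and 17.9 CPM and the lipid + itaconate ones at 12.6, 10.3, 12.0 and 14.5 CPM. Every library with itaconate was below every library without it, which was so, in either direction, for 5.82% of all genes. As a log2 fold change this was −0.41 ± 0.10 (SE, adjusted p = 0.0453), with a fall of 0.30 to 0.68 on the log2 scale in the 4 letters. It was the 1 call among the 9 genes, against 1.26% of all genes lower and 1.32% higher, and leaving out lipid + itaconate replicate C kept it, while leaving out any other of the 8 libraries lost it (adjusted p 0.000454 to 0.303 over 14 alternatives).

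The median of the 9 genes in this comparison was −0.08, near the −0.00013 of all genes. *Lss* (−0.08, 95% interval −0.28 to 0.12), *Cyp51* (−0.10, −0.30 to 0.10) and *Nsdhl* (−0.02, −0.16 to 0.13) did not pass the test. *Dhcr7* had a log2 fold change of −0.22 (95% interval −0.48 to 0.05, adjusted p = 0.381), and without lipid + itaconate replicate C it was −0.41 (adjusted p = 0.00983; 0.00730 to 0.782 over 14 alternatives). That library is also the one with the highest mitochondrial share (6.01% against 3.27% to 4.97% in the others), and the part of that share in these values was not tested.

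The replicate letters moved the enzymes together. Same-letter libraries also deviated together over all genes (median correlation 0.263), and whether the enzymes differ from other genes in this was not tested. Averaged over the 4 treatments, letter A was above the mean in all 9 genes, from 0.07 for *Msmo1* to 0.29 for *Dhcr7* on the log2 CPM scale, and letter C was below it in all 9, from −0.32 for *Dhcr7* to −0.14 for *Sc5d*. Replicate C was the lowest library of its group for 8 of the 9 genes in untreated hepatocytes and for 9 of 9 with itaconate and with lipid. With lipid + itaconate it was the lowest for 4 of 9, and replicate B for the other 5. The median difference of the 9 genes with itaconate alone was largest in letter C (−0.44, against −0.24 to −0.12 in the other letters), and in the presence of lipid letter C was the one with a median above 0 (0.07, against −0.18 to −0.09).

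**Figure D4:**
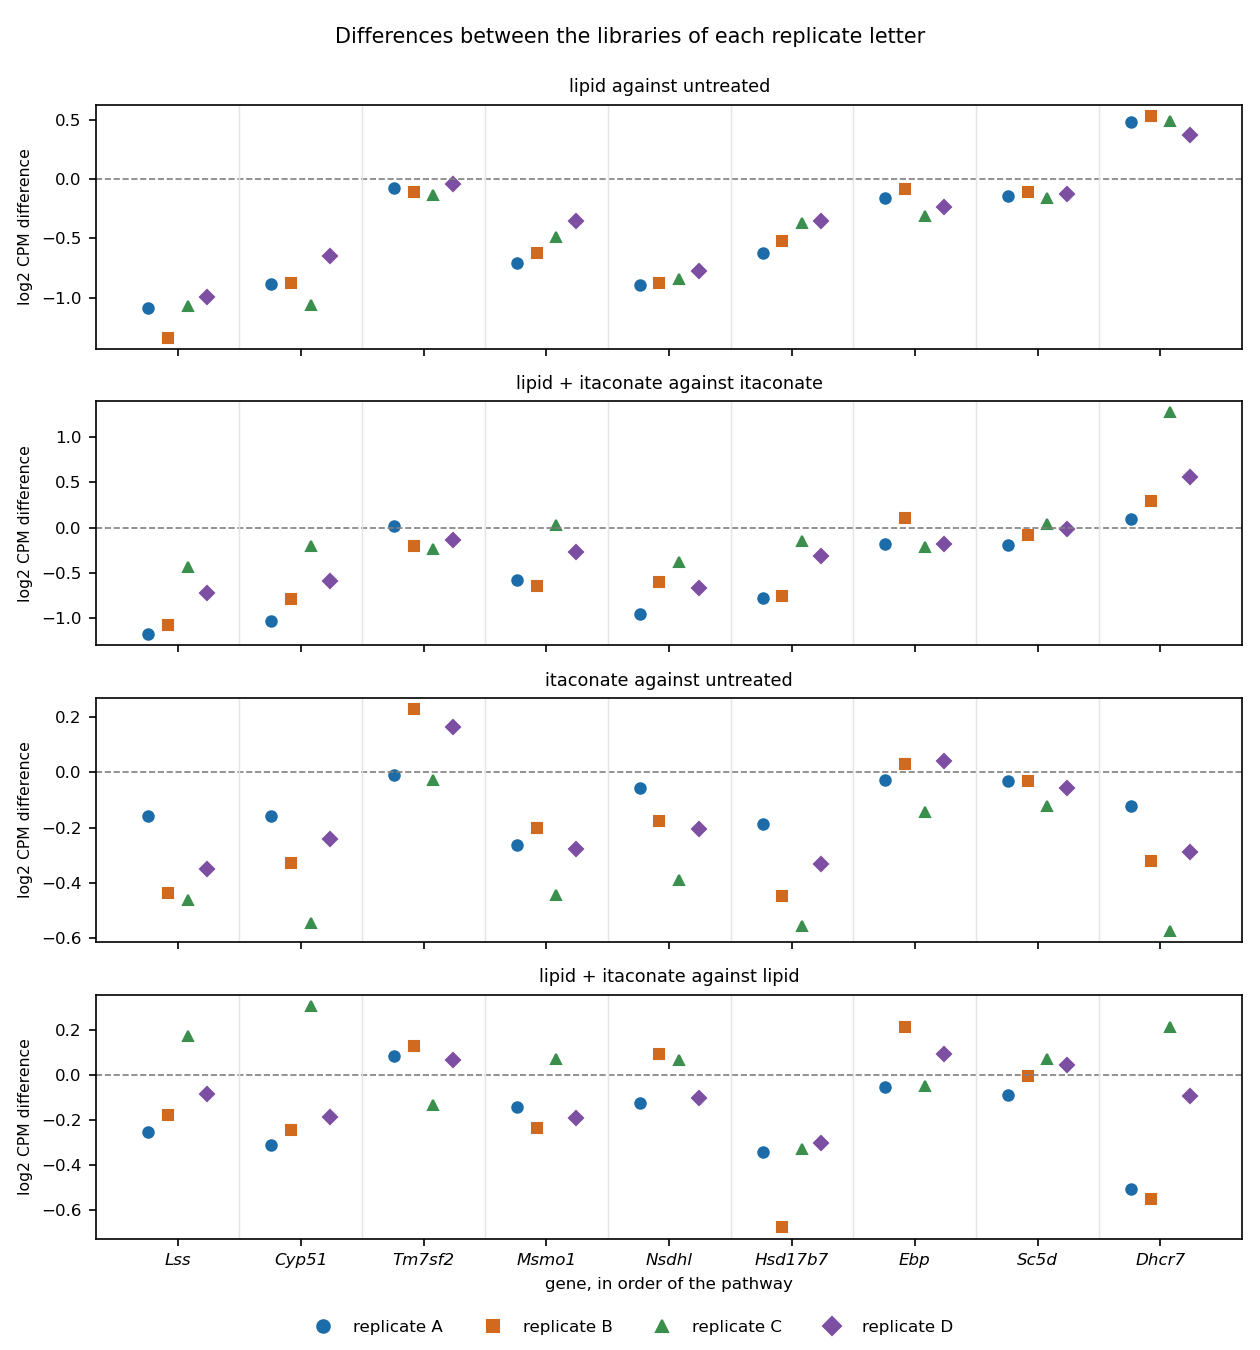
Difference in log2 CPM between the 2 libraries of each replicate letter, for the 9 genes in pathway order and 4 comparisons (panels), with 1 symbol and colour per letter and separate vertical scales. In lipid against untreated the 4 letters of a gene lie close together and on 1 side of 0, and in lipid + itaconate against itaconate they spread more, with the green triangle of letter C at 1.28 for *Dhcr7* and just above 0 for *Msmo1*.

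With the treatment and the letter both removed, the libraries still varied together in most of the genes. Pearson's r of the residual log2 CPM over 16 libraries (9 residual degrees of freedom) was above 0 in 24 of the 36 pairs of genes, with a median of 0.66, and these values share libraries and their scaling. Pairs outside the 9 genes were not examined. All 12 negative pairs held *Tm7sf2* or *Ebp*. Among the other 7 genes the 21 pairs ran from 0.54 (*Nsdhl* with *Hsd17b7*) to 0.88 (*Lss* with *Msmo1*). *Tm7sf2* was negative with 7 of 8 genes (−0.57 with *Dhcr7*), and positive with *Ebp* (0.37).

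By this measure *Dhcr7* was positive with 6 of the other 8 enzymes. Its residual r ran from 0.65 with *Nsdhl* to 0.84 with *Lss* in these, and was −0.57 with *Tm7sf2* and −0.35 with *Ebp*. When only the letter was removed and the treatment left in, r was negative with all 8, from −0.83 with *Tm7sf2* to −0.17 with *Hsd17b7*, and −0.53 with *Lss*.

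The earlier branch of the pathway was compared as a list of 10 genes from *Acat2* to *Sqle*. In each of the 2 lipid comparisons 8 of the 10 were called lower and 0 higher, beside 23.7% and 23.5% of all genes called lower, with medians of −0.65 and −0.56. *Hmgcs1*, the cytosolic HMG-CoA synthase, had log2 fold changes of −1.07 (adjusted p = 1.25e-07) and −0.81 (adjusted p = 2.58e-06), and *Idi1*, which isomerizes isopentenyl diphosphate, of −1.21 (adjusted p = 2.29e-07) and −1.09 (adjusted p = 1.09e-06). With itaconate alone 2 of the 10 were called lower (*Hmgcs1* at −0.39 and *Fdps* at −0.25, adjusted p = 0.0149 and 0.0193), beside 2.95% of all genes. *Hmgcs1* was called in 9 of 14 alternatives (adjusted p 2.54e-10 to 0.194) and *Fdps* in 8 (0.000367 to 0.310), and the count was 0 without untreated replicate A or B or itaconate replicate C or D. With itaconate in lipid-treated cells edgeR called 0 of the 10, against 1.26% of all genes lower and 1.32% higher. DESeq2 called 1, beside 512 of all 11675 genes. An unadjusted edgeR p under 0.05 was found for 4. The largest of those 4 was that of *Idi1* (0.0465), at rank 1936 of the 11675 genes.

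Of 8 other genes of the sterol steps and their electron supply, 2 were called lower with lipid, alone and with itaconate, and 0 higher, a share near the 23.7% and 23.5% of all genes called lower. One of them was *Cyb5b*, the outer mitochondrial cytochrome b5, with log2 fold changes of −0.47 (adjusted p = 3.33e-06) and −0.41 (adjusted p = 1.45e-05). With lipid against untreated the 6 that did not pass were at −0.14 (*Lbr*), −0.10 (*Erg28*), 0.07 (*Por*), −0.11 (*Cyb5r3*), −0.02 (*Cyb5a*) and 0.06 (*Pgrmc1*). *Por*, *Cyb5r3* and *Cyb5a* pass electrons to the P450 and oxidase steps. With itaconate alone edgeR called 0 of the 8 and DESeq2 called 2, beside 791 of all 11675 genes by DESeq2. An unadjusted edgeR p under 0.05 was found for 3 of the 8. Of all genes at least 1818 had one, the rank by p of *Dhcr7* (0.0264). In lipid-treated cells both methods called 0. There *Cyb5r3* alone had an unadjusted p under 0.05 (0.0234 by edgeR), at rank 1351 of the 11675 genes.

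Of 9 genes that control SREBP2 or LDL uptake, 5 were called lower and 1 higher with lipid, and 6 lower and 0 higher with lipid in the presence of itaconate. Of all genes 23.7% were lower and 23.8% higher in the former, and 23.5% each in the latter. *Insig1*, which holds SREBP2 back in the endoplasmic reticulum and is itself its target, fell from 237 ± 20.5 CPM to 91.0 ± 6.01 CPM (SD, 4 libraries each), which is −1.38 on the log2 scale (adjusted p = 1.08e-09). With itaconate 0 of the 9 were called by edgeR or DESeq2, either without lipid (3 at an unadjusted p under 0.05) or with it (1). Of all 11675 genes at least 1896 had an unadjusted edgeR p under 0.05 without lipid, the rank of *Insig1* (0.0290). With lipid at least 1936 did, the rank of *Idi1* (0.0465). Of 6 tested genes on a list of 8 targets of the sterol receptor LXR, 4 were lower with lipid, and 5 were lower and 1 higher with lipid in the presence of itaconate, beside the same shares of all genes. Lower in both were, among others, *Srebf1* (−0.67 and −0.55) and the cholesterol exporter *Abca1* (−0.28 and −0.36).

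Over the 16 libraries, with the letter removed and the treatment left in, the genes whose log2 CPM was most like the mean z-score of the 9 enzymes were sought among 9636 others that averaged 5 CPM or more. *Fdft1*, squalene synthase, was the first (Pearson's r 0.99), followed by *Hmgcs1* (0.98), *Fdps* (0.97), *Irf7* (0.97) and *Acat2* (0.97). *Irf7* encodes an interferon regulatory factor and is outside the sterol pathway, and it had log2 fold changes of −1.14 with lipid and −0.59 with itaconate. The lowest values were those of *Cdan1* (−0.98), *Pbx2* (−0.96) and *Cmtm8* (−0.96). Among the 9 enzymes the r of each with the mean of the other 8 was 0.97 for *Cyp51*, 0.96 for *Lss* and *Nsdhl*, 0.94 for *Msmo1*, 0.92 for *Sc5d*, 0.84 for *Hsd17b7*, 0.59 for *Ebp*, 0.30 for *Tm7sf2* and −0.56 for *Dhcr7*.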

How the data were processed

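Reads had been trimmed with Cutadapt 1.18, aligned to mm10 with STAR 2.7.0f and quantified on GENCODE genes with RSEM 1.3.1, and the values deposited by the authors are expected counts per gene without normalization, of which 5.41% were not whole. For the tests the values were rounded to whole numbers and fitted with edgeR 4.0.16 (R 4.3.3), keeping genes that averaged 1 CPM or more. One quasi-likelihood model (glmQLFit, TMM factors) held the treatment and the replicate letter, with Benjamini-Hochberg adjustment across all 11675 genes kept and a threshold of 0.05. The code was tested on simulated data. Per-library differences and correlations used log2 CPM with a prior count of 0.5, and 95% intervals come from the model. Genes were annotated with GENCODE M21 (GRCm38), in which all 55450 identifiers were found.

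All 9 enzymes were named. Of each comparison list the 2 genes with the smallest p in lipid against untreated were named, with all genes of the electron supply list, *Fdps* in addition as the other called gene of its count, and for likeness the 5 highest and 3 lowest r. Values of 2 genes of these lists are not reported here. Members and lists were chosen with earlier results of these data known. Alternatives were no replicate letter, RLE scaling, no filter, filterByExpr, only the 8 libraries of a comparison, DESeq2 1.42.0 and each library left out.

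Same-letter libraries deviated together from their group means (24 correlations over all genes, 0.144 to 0.469, median 0.263), as against a median of −0.114 in 72 pairs of other letters, so the letter was kept as a block, after the batch removal in the study. No 2 libraries of a group agreed within counting noise (24 pairs, chi-square per gene from 10.0 to 147).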

Additional observations from a re-analysis of the deposited data

How the results depend on the processing

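In lipid against untreated, 8 of the 9 enzymes were called in the model with the replicate block, and 5 in the model without it, which lost *Ebp*, *Sc5d* and *Dhcr7*. Over all 11675 genes that comparison called 2779 higher and 2767 lower with the block, and 4149 in either direction without it. For itaconate against untreated the count of 2 was 0 without the replicate block, 6 with no filter, 6 when the other 8 libraries were dropped, 4 by DESeq2, and between 0 and 4 with 1 library left out. Calls over all genes moved as well, from 229 higher and 344 lower in the main model. They were 23 of 11675 without the block, 1091 of 25152 with no filter and 1865 of 11623 when the other 8 libraries were dropped. By DESeq2 they were 791 of 11675, and with 1 library left out between 149 and 395. For lipid + itaconate against lipid the count of 1 was 0 without the block, with filterByExpr or when the other 8 libraries were dropped, 2 with no filter, and between 0 and 2 with 1 library left out. Here 154 of all genes were higher and 147 lower in the main model. Without the block 9 of 11675 were called, with filterByExpr 243 of 13714, and 13 of 11691 when the other 8 libraries were dropped. With no filter 725 of 25152 were called, and with 1 library left out between 59 and 889. The cause of these changes was not tested. Counts for lipid + itaconate against itaconate and for the interaction stayed within 1.5 times under every alternative, and the block changed no other count of the 9 enzymes by more than that. Of the other lists, the mevalonate branch count of 2 with itaconate alone was 0 without the block, 6 with no filter, 7 when the other 8 libraries were dropped, 6 by DESeq2 and 0 to 6 with 1 library left out. Its count of 0 with itaconate in lipid-treated cells reached 3 with no filter. With itaconate alone the 8 other sterol genes went from 0 to 2 with no filter and 3 when the other 8 libraries were dropped, and the SREBP2 list from 0 to 4 in the latter. These list counts are to be read against the counts over all genes given above for the same comparisons. *Lss*, *Cyp51*, *Msmo1*, *Nsdhl* and *Hsd17b7* kept their fall with lipid, with and without itaconate, in all 14 alternatives. Signs changed only in values that did not pass the test, each with 1 library left out: for itaconate against untreated *Ebp* (−0.073 to 0.026), for lipid + itaconate against lipid *Nsdhl* (−0.068 to 0.045), *Ebp* (−0.023 to 0.10) and *Sc5d* (−0.016 to 0.041), and for the interaction *Tm7sf2* (−0.10 to 0.00070), *Hsd17b7* (−0.12 to 0.054), *Ebp* (−0.0027 to 0.13) and *Dhcr7* (−0.10 to 0.20). None of the 36 groups of 4 values (9 genes in 4 treatments) held an outlying library by Dixon's test at the 95% level.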
